A study of Mus musculus with 8 samples.

Results

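Retinas of adult C57BL/6J mice after 14 days in 75% oxygen were set against retinas after 3 days in 75% oxygen. The members of the comparison are the 2 arrays titled 14 days and the 2 arrays titled 3 days, 4 of the 8 arrays of the series, and the control and day 7 arrays are given only as values beside them. All animals were 80 to 120 days old by their labels and were raised in dim cyclic light. Day 14 and day 3 therefore differ by the length of the exposure alone as far as the labels say. For each time the study pooled retinas of males and females. Nothing in the sources used here tells whether both arrays of a time were made from 1 pool or from 2, so p-values cover only the spread between these arrays, which may be technical. RNA was measured on an oligonucleotide array on which a transcript is read by at least 1 probe set, a set of short probes chosen for the most part from its 3' end. Each value is a log2 intensity from which the median of that probe set over the 8 arrays has been taken away, so a value says how far an array lies from that median and nothing of the level of the transcript. The presence of the defining genes of retina could therefore not be checked by level.

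The retina is a layered nervous tissue at the back of the eye, where rods and cones turn light into signals for bipolar, amacrine, horizontal and ganglion cells, with Müller cells as its main glia. It lies against the retinal pigment epithelium, a pigmented sheet that renews the visual pigment, and further out against the choroid, a vascular layer with melanocytes. The lens and the cornea lie at the front of the same eye. Breathing oxygen-rich gas is known to damage photoreceptors of adult rodents after an interval of days, and the study divides its time course into an early and a late phase. Day 14 against day 3 sets the late phase against the early one.

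The arrays of a time did not behave alike, and this bears on every value below. Across all 45037 probe sets, the array labelled day 14 replicate 2 correlated with the array labelled day 3 replicate 2 at r = 0.74, while the arrays of day 14 correlated with each other at 0.18 and those of day 3 at -0.13. The arrays numbered 2 also had the higher 3' minus 5' difference of *Gapdh*, a glycolytic enzyme probed at both ends, with 1.43 on day 14 and 1.19 on day 3, against 0.05 and -0.29 on the arrays numbered 1. Whether each deposited column carries the label of its own sample is not settled by these values. If a label of a day 14 or day 3 array were wrong, every difference of day 14 minus day 3 given here would mean something else. For this reason the difference within the arrays numbered 1 and that within the arrays numbered 2 are given beside the difference of means for the genes the results turn on. Across probe sets these 2 differences correlated at r = 0.10, a description over probe sets that share the same 4 arrays, and had the same sign in 50.3% of them. In the plot of the 2 differences, the probe sets with large positive values in both stand away from the cloud.

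With all 4 arrays, most of the larger differences were higher at day 14, but this balance depended on single arrays. With a 2-fold difference taken as 1 or more on the log2 scale, 133 probe sets were 2-fold higher at day 14 than at day 3 with both day 14 arrays above both day 3 arrays (0.295% of those tested), and 9 were 2-fold lower with no overlap (0.0200%). Without the array labelled day 3 replicate 2 there were 887 higher and 1360 lower, without the array labelled day 14 replicate 1 there were 221 and 583, and between the arrays numbered 1 alone 692 and 796. Without day 3 replicate 1 there were 225 and 31, and without day 14 replicate 2 there were 234 and 40. With fewer arrays the rule of no overlap is looser, which by itself raises the counts. The 133 probe sets name 104 genes, and 4 of them name no single gene. They were led by genes of pigment cells, of the corneal epithelium and of the lens, with genes of connective tissue and smooth muscle behind them. The 9 lower ones name 7 genes. Without the limit of 2-fold the directions were level, with 5837 probe sets higher (13.0%) and 5900 lower (13.1%) and no overlap, 26.1% in all. A gap of 1 or more between the nearest arrays of the 2 times was found in 36 probe sets, all higher at day 14 (0.0799%), and in 0 lower (0.00%). By limma with Benjamini-Hochberg adjustment, 0 probe sets passed an adjusted p of 0.05 (0.00%, lowest adjusted p = 0.998), and 1203 had an unadjusted p under 0.05 (2.67%). An exact two-sided permutation test of 2 arrays against 2 cannot go below p = 0.333. All differences below are therefore descriptions of these 4 arrays, with limma's SE (n = 2 arrays a time), and no named gene had an adjusted p from limma below 0.998 in the fit on probe sets or below 0.983 in the fit on gene means. The probe sets just inside the 2-fold limit were those of *Ddr2* (1.002), *C2* (1.002) and *Sdc1* (1.003), and just outside it lay *Zfp950* (-0.9997), *Nipbl* (-0.99) and *Pclo* (-0.99).

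Pigment cell genes held the clearest difference. The list of the retinal pigment epithelium and choroid has 21 measured genes, each taken as the mean of its probe sets, of which 19 were higher (53.4% of all 18194 genes were) and 2 lower (46.6%) at day 14. Both day 14 arrays lay above both day 3 arrays in 17 of them (81.0%, against 14.4% of all genes), and none lay below (0.00%, against 11.7%). The median difference was 0.87 (1.14 within the arrays numbered 1, 0.66 within those numbered 2), against 0.02 over all genes. Pigment cells make melanin in melanosomes from tyrosine, by tyrosinase and its relatives, on a fibrous scaffold of the protein Pmel. The transcription factor Mitf is known to switch on several of these genes through a short promoter element called the M-box, whose core is TCATGTG. The promoters of 4 of the genes that were higher are shown because they hold this core. They are from RefSeq (GRCm38.p6), 250 bases before to 50 after a gene's start, with the core in capitals on either strand (CACATGA on the other strand). *Tyr* lies at chr7:87493463-87493762 on the minus strand, *Tyrp1* at chr4:80833963-80834262 on the plus strand, *Dct* at chr14:118052197-118052496 on the minus strand and *Trpm1* at chr7:64153585-64153884 on the plus strand (the first of its 2 starts in the table).
Tyr: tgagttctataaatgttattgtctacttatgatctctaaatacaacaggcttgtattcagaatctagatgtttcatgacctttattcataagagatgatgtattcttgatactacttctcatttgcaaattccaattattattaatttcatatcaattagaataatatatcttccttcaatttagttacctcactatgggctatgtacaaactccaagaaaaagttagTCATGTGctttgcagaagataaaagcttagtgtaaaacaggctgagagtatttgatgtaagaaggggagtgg
Tyrp1: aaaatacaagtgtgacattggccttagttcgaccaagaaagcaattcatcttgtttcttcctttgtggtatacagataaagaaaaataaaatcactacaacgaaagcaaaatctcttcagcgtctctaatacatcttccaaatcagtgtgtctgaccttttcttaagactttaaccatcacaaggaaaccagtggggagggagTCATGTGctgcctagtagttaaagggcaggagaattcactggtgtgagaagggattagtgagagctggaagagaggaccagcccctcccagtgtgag
Dct: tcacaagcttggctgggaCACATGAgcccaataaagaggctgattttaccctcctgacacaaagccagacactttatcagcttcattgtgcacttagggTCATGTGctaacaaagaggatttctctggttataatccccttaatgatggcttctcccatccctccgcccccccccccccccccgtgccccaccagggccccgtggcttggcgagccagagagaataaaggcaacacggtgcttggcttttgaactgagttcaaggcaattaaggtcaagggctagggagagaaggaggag
Trpm1: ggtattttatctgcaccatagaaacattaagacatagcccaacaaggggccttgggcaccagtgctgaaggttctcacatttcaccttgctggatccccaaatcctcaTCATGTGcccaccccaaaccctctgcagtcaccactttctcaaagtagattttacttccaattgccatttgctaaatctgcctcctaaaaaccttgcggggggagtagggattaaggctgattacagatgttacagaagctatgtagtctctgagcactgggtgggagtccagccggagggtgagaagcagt
The core began 22 bases before the start in *Tyr*, 47 in *Tyrp1*, 142 in *Trpm1*, and 232 and 151 in *Dct*. The same search found it on either strand in 3 of the 16 pigment list genes with an entry in the table (18.8%) and in 8 of the 76 genes with an entry that were 2-fold higher without overlap (10.5%). Among all measured genes with an entry it was found in 454 of 14452 (3.14%), and in 4.31% of all 27025 genes of the table. The windows of *Gpnmb*, *Oca2* and the second start of *Trpm1* did not hold these letters. A match is a description of the letters and does not show a site in use.

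Among the melanosome genes, *Pmel*, the scaffold protein, had values of 0.88 and 1.07 on the day 14 arrays (replicates 1 and 2) and -1.33 and -2.55 on the day 3 arrays. The difference was 2.92 ± 0.93 (SE), and the nearest arrays of the 2 times were 2.21 apart. *Mlana*, a melanosome protein of melanocytes, had 0.90 and 1.57 at day 14 and -0.45 and -2.60 at day 3 (2.76 ± 1.14). In both genes the array labelled day 3 replicate 2 was the lowest of the 4. *Tyrp1*, which acts in the last steps of melanin synthesis, had 1.07 and 1.31 at day 14 and -0.46 and -2.22 at day 3 (2.52 ± 0.97), and all 3 of its probe sets were higher without overlap. *Dct*, which acts just before it, had 0.58 and 0.74 at day 14 and -1.10 and -2.17 at day 3 (2.29 ± 0.87). *Tyr*, the first enzyme of the pathway, had 0.65 and 0.24 at day 14 and -0.34 and -2.00 at day 3 (1.62 ± 0.77). Its 3 probe sets were higher, 2 of them without overlap, and its gene mean was 0.82. The order of the 4 arrays was the same in these enzymes at the low end, with the array labelled day 3 replicate 2 below the array labelled day 3 replicate 1. *Oca2*, a melanosome channel protein, had 0.81 and 0.20 at day 14 and -0.52 and -1.54 at day 3 (1.53 ± 0.54). *Gpnmb*, a glycoprotein of melanosomes and macrophages, had 1.02 and 1.10 at day 14 and -0.96 and -1.76 at day 3 (2.42 ± 0.76). Only 1 of its 2 probe sets had no overlap, and its gene mean was 1.31. *Trpm1*, a cation channel of melanocytes that also carries the light response of ON bipolar cells, had 0.98 and 1.46 at day 14 and -1.01 and -0.88 at day 3 (2.17 ± 0.64). Of its 4 probe sets, 4 were higher and 2 had no overlap. *Slc26a4*, an anion transporter on the pigment list, had 1.10 and 1.02 at day 14 and -0.04 and -1.42 at day 3 (1.79 ± 0.87). In each of these 9 genes both differences within a number were positive, which the absence of overlap fixes. They lay between 0.99 and 2.21 in the arrays numbered 1 and between 1.74 and 4.17 in those numbered 2. *Gpnmb* and *Trpm1* are not on the pigment list.

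The control arrays lay far apart in the same genes. *Pmel* had -1.53 on the control array numbered 1 and 1.45 on that numbered 2, *Tyrp1* had -1.61 and 1.17, and *Dct* -1.76 and 1.09. In these 3 genes the day 14 arrays were closer to the higher control array than to the lower one, and the array labelled day 3 replicate 2 was below both. Of the 133 probe sets, 62 differed by 2-fold or more between the control arrays (46.6%, against 1.18% of all probe sets), 61 of them with the array numbered 2 above that numbered 1. The gap between the control arrays was as large as the difference of day 14 and day 3 or larger in 46 of the 133 (34.6%), against 54.7% of all probe sets. The 133 were chosen for a large difference, which by itself makes a control gap of that size rarer among them. Whether the amount of pigment cell tissue in a sample took part in the differences was not tested, and in bulk tissue fewer cells of a type and less RNA per cell cannot be told apart.

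Genes of the pigment epithelium that serve the visual cycle, the pathway that renews the light-sensitive pigment, were also higher, with smaller differences. *Rgr*, an opsin of pigment epithelium and Müller cells, had 1.09 and 0.40 at day 14 and -0.56 and -0.14 at day 3 (1.09 ± 0.71 in the fit on genes). *Lrat*, which makes retinyl esters, differed by 0.99 ± 0.82, *Rdh5*, an 11-cis retinol dehydrogenase, by 0.87 ± 0.66 and *Stra6*, the receptor for retinol-binding protein, by 0.96 ± 0.58, all without overlap. *Rpe65*, the isomerase of the cycle, had 0.91 and -0.09 at day 14 and 0.09 and -0.77 at day 3, so its arrays overlapped (0.75 ± 0.81). *Mitf* had 0.00 and 0.23 at day 14 and -0.29 and -0.10 at day 3 (0.31 ± 0.17), a small difference without overlap. *Best1*, a chloride channel of the pigment epithelium, had 0.10 and 0.00 at day 14 and -0.22 and 0.17 at day 3, and *Trpm3*, a cation channel, had -0.18 and -0.58 at day 14 and -0.16 and -0.30 at day 3. The arrays of both genes overlapped.

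The corneal and conjunctival list stood out next. Of its 37 measured genes, 33 were higher and 4 lower, and 26 were higher without overlap (70.3%, against 14.4% of all genes), with 1 lower (2.70%, against 11.7%). The median difference was 0.42 (0.59 within the arrays numbered 1, 0.30 within those numbered 2). *Aldh3a1*, a corneal aldehyde dehydrogenase, had the largest difference of the comparison and the widest gap, with 1.69 and -0.31 at day 14 and -2.76 and -2.89 at day 3 (3.52 ± 0.87). *Krt12*, the keratin of corneal epithelium, had 1.93 and -0.05 at day 14 and -2.04 and -2.60 at day 3 (3.26 ± 0.94), and its second probe set gave 3.10. Here the day 3 arrays lay together and the array labelled day 14 replicate 1 was the highest of the 4. *Krt6b*, a keratin of stratified epithelia, had 1.16 and 0.30 at day 14 and -1.64 and -1.53 at day 3 (2.31 ± 0.68). *Lypd2*, a small surface protein, had 1.48 and 0.17 at day 14 and -1.21 and -1.61 at day 3 (2.23 ± 0.56). *Krt5*, the keratin of basal epithelial cells, had 1.70 and 0.05 at day 14 and -1.17 and -0.70 at day 3 (1.81 ± 0.57). The same array was the highest in these 3 genes, and no day 3 array reached a day 14 one. The next 3 genes had smaller errors, and only *Perp* of them is on the corneal list. *Asprv1*, a protease of skin, had 0.95 and 0.20 at day 14 and -1.09 and -1.29 at day 3 (1.76 ± 0.34), *Perp*, a desmosome protein, 0.72 and 0.30 against -1.02 and -0.59 (1.32 ± 0.26), and *Plac8*, a small cysteine-rich protein, 0.50 and 0.79 against -0.50 and -0.52 (1.16 ± 0.17). In *Aldh3a1*, *Krt12*, *Krt6b*, *Lypd2* and *Asprv1* the control arrays were also above both day 3 arrays, at 0.31 and 2.36 for *Aldh3a1* and at 0.85 and 2.41 for *Krt12*. *Trp63*, a transcription factor of basal epithelium, went the other way, with -0.01 and -0.04 at day 14 and 0.09 and 0.17 at day 3. *Kera*, the keratocan of the corneal stroma, differed by 0.01 ± 0.15 with overlapping arrays.

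**Figure D1:**
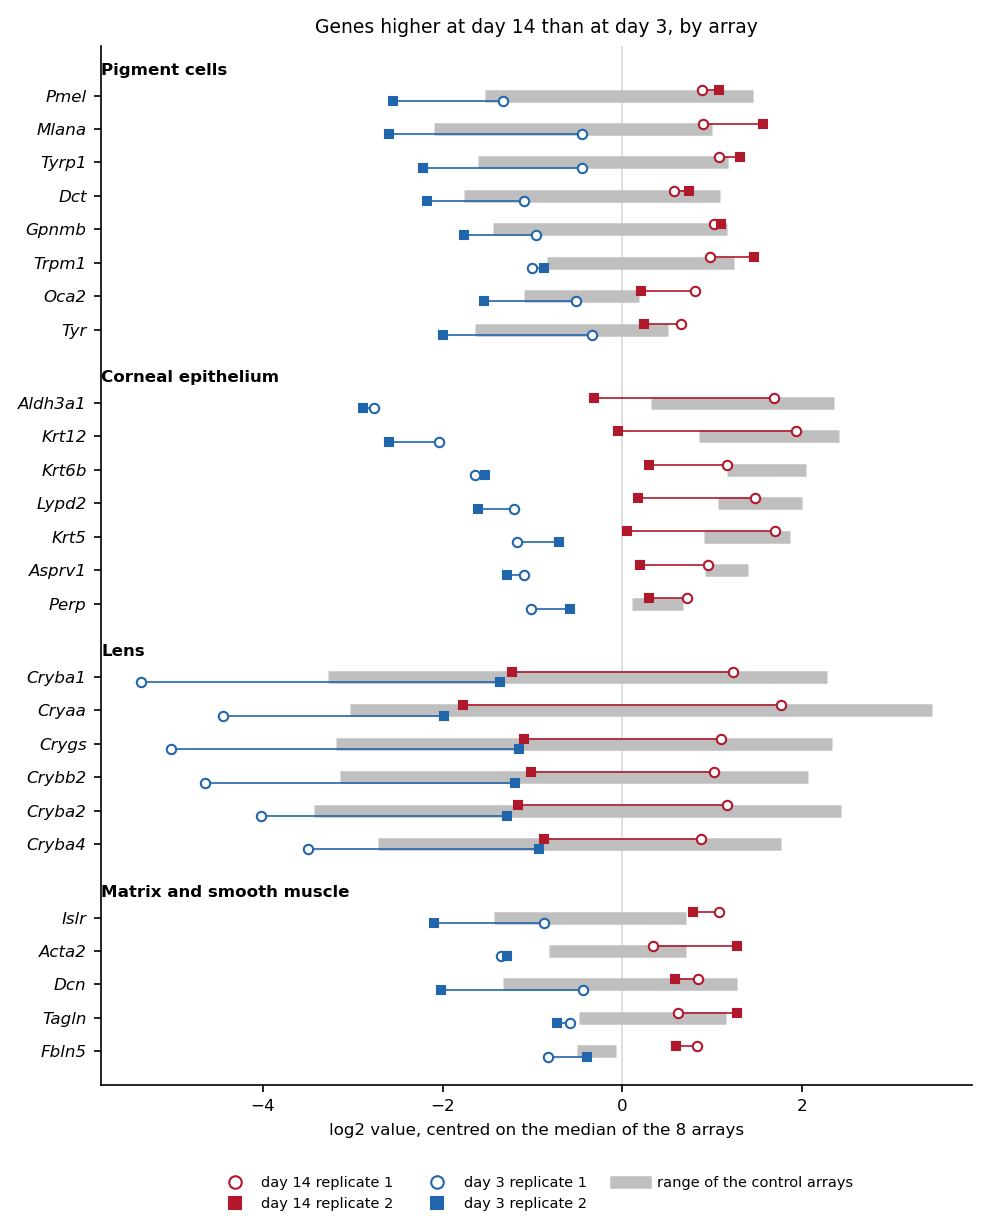
Centred log2 values (horizontal axis) of 26 genes higher at day 14 than at day 3, by array: day 14 in red above day 3 in blue, replicate 1 as open circles, replicate 2 as filled squares. Grey bars span the 2 control arrays. In the 6 lens genes the arrays numbered 2 nearly meet, and in the pigment genes the control bar is wide. *Gpnmb*, *Trpm1*, *Asprv1*, *Islr* and *Fbln5* are not on the gene list of the group they are drawn in.

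Lens genes had large differences that came from the arrays numbered 1. Of 22 measured lens genes, mostly crystallins, the structural proteins of lens fibres, 21 were higher and 1 lower at day 14, and 13 were higher without overlap (59.1%, against 14.4% of all genes). Within the arrays numbered 1 their median difference was 1.51, and within those numbered 2 it was 0.05. *Cryba1* had 1.23 and -1.23 at day 14 and -5.36 and -1.36 at day 3. Its difference of 3.36 ± 2.02 thus joins 6.59 between the arrays numbered 1 and 0.13 between those numbered 2. *Cryaa*, the alpha crystallin that is also a chaperone, had 1.77 and -1.77 at day 14 and -4.44 and -1.99 at day 3 (3.22 ± 2.13). *Crygs* differed by 3.09 ± 1.95, *Crybb2* by 2.93 ± 1.80, *Cryba2* by 2.65 ± 1.89 and *Cryba4* by 2.21 ± 1.53, each with a gap of 0.18 or less between the nearest arrays. The array labelled day 3 replicate 1 was the lowest in all 6. On the day 7 arrays the same genes lay between 1.89 and 3.91, above all 4 arrays compared here in each of the 6.

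A part of the genes of connective tissue and smooth muscle was higher at day 14. Of 51 genes of the extracellular matrix, 39 were higher and 12 lower, and 19 were higher without overlap (37.3%, against 14.4% of all genes) with 2 lower (3.92%, against 11.7%). The median difference was 0.17, with 0.22 within the arrays numbered 1 and 0.13 within those numbered 2. The highest gene mean of this list was 1.05, and *Islr* and *Fbln5*, given below, are not on it. *Islr*, a secreted protein of fibroblasts, had 1.08 and 0.78 at day 14 and -0.88 and -2.10 at day 3 (2.42 ± 0.71). *Dcn*, the matrix proteoglycan decorin, had 0.84 and 0.59 at day 14 and -0.44 and -2.02 at day 3 (1.94 ± 0.86). *Fbln5*, which helps to assemble elastic fibres, had 0.83 and 0.59 at day 14 and -0.83 and -0.40 at day 3 (1.32 ± 0.22), and both day 14 arrays lay above both control arrays (-0.51 and -0.07). These genes shared a low array labelled day 3 replicate 2, except for *Fbln5*. *Acta2*, the actin of smooth muscle, had 0.34 and 1.27 at day 14 and -1.35 and -1.29 at day 3 (2.13 ± 0.53), although only 1 of its 3 probe sets had no overlap. *Tagln*, an actin-binding protein of the same cells, had 0.62 and 1.27 at day 14 and -0.58 and -0.73 at day 3 (1.60 ± 0.55). Collagens of vessel walls and stroma were among the higher ones, with *Col18a1* at 0.81 ± 0.30, *Col3a1* at 0.44 ± 0.27 and *Col1a2* at 0.38 ± 0.13 as gene means without overlap. *Tnr*, a matrix protein of nervous tissue, was lower (-0.34 ± 0.12, no overlap).

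Several other genes higher at day 14 belong to none of these lists. *Sdc1*, a cell surface proteoglycan of epithelia, had 1.29 and 0.36 at day 14 and -1.04 and -0.70 at day 3 (1.70 ± 0.34). *Bmp7*, a secreted growth factor, had 0.57 and 0.56 at day 14 and -0.61 and -0.62 at day 3 (1.18 ± 0.31), so the arrays of each time nearly coincided. *Abcc4*, an export pump for organic anions, had 0.35 and 0.62 at day 14 and -1.10 and -0.39 at day 3 (1.23 ± 0.25), with both control arrays at 0.00. *Best2*, an anion channel of the ciliary epithelium, had 0.91 and 1.09 at day 14 and 0.26 and -0.30 at day 3 (1.02 ± 0.22). In *Abcc4* and *Best2* both day 14 arrays were above all control and day 7 arrays. *Gpx3*, the secreted glutathione peroxidase, had 1.40 and 0.996 at day 14 and 0.11 and -1.05 at day 3 (1.67 ± 0.64). *Gja1*, the gap junction protein connexin 43, had 0.83 and 0.35 at day 14 and -0.20 and -2.38 at day 3 (1.88 ± 0.97), and 5 of its 6 probe sets were higher without overlap.

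With all 4 arrays 7 genes were lower by 2-fold without overlap, a count that rests on single arrays, since 1360 probe sets were lower without the array labelled day 3 replicate 2 and 583 without the array labelled day 14 replicate 1. *Rgs5*, a regulator of G protein signalling that marks pericytes, had -0.64 and -1.24 at day 14 and 1.22 and -0.35 at day 3 (-1.38 ± 0.57), and 4 of its 4 probe sets were lower. *Samd7*, a transcriptional repressor of rods, had -0.73 and -1.19 at day 14 and 0.63 and -0.43 at day 3 (-1.06 ± 0.38). *Pggt1b*, the beta subunit of a prenyl transferase, had -0.61 and -2.14 at day 14 and -0.32 and -0.29 at day 3 (-1.07 ± 0.47). In the first 2 genes the array labelled day 3 replicate 1 was well above the other 3, and in *Pggt1b* the array labelled day 14 replicate 2 was well below them. *Cp*, the iron oxidase ceruloplasmin, had -0.45 and 0.06 at day 14 and 1.44 and 0.29 at day 3 (-1.06 ± 0.64). *Zfp729b* (-1.27 ± 0.82), *Trip12*, a ubiquitin ligase (-1.16 ± 0.75), and *Ccdc173* (-1.004 ± 0.62) had gaps of 0.07 or less between the nearest arrays. Of the 50 probe sets that were 2-fold lower by their means (0.111%), 41 overlapped, against 4 of the 137 that were 2-fold higher (0.304%).

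The named genes with the widest gap downwards had smaller but more even differences, and 3 probe sets that name no single gene were among those with the widest gaps. *Nipbl*, which loads cohesin on chromosomes, had -0.85 and -0.83 at day 14 and 0.40 and -0.10 at day 3 (-0.99 ± 0.28), and its 5 probe sets were all lower. *Kcnd2*, a potassium channel of neurons, had 0.02 and -0.02 at day 14 and 0.70 and 0.75 at day 3 (-0.72 ± 0.17). Of its 4 probe sets, however, 1 was higher without overlap, and its gene mean was -0.27. *Syt1*, the calcium sensor of synaptic vesicles, had -0.82 and -0.75 at day 14 and 0.09 and -0.09 at day 3 (-0.78 ± 0.31). Its 4 probe sets were lower, 1 of them without overlap. In all 3 the 2 arrays of day 14 lay within 0.07 of each other. *Ncl*, the nucleolar protein nucleolin, had -0.71 and -0.65 at day 14 and -0.03 and -0.05 at day 3 (-0.64 ± 0.20), and its 5 probe sets were lower. *Nppb*, the natriuretic peptide B, had -0.03 and 0.11 at day 14 and 0.70 and 0.75 at day 3 (-0.68 ± 0.14). *Asxl3*, a chromatin protein, had -0.13 and -0.32 at day 14 and 0.52 and 0.48 at day 3 (-0.73 ± 0.16). In *Nppb* and *Asxl3* the day 3 arrays were above all control and day 7 arrays, while in *Nipbl*, *Syt1* and *Ncl* both control arrays were above both day 14 arrays. *Bbx* (-0.68 ± 0.17), *9230114K14Rik* (-0.95 ± 0.19) and *Zfp248* (-0.76 ± 0.18) also had no overlap at the probe set given. Of the 4 probe sets of *Zfp248*, 1 was higher without overlap, and its gene mean was -0.31. At 1.5-fold, 287 probe sets of 205 genes were lower without overlap and 495 probe sets higher. Of the 287, both control arrays lay above both day 14 arrays in 186 (64.8%, against 18.3% of all probe sets) and below both day 3 arrays in 90 (31.4%, against 24.7%). Choosing low day 14 and high day 3 values raises both shares by itself, so the shares over all probe sets are no yardstick for them.

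**Figure D2:**
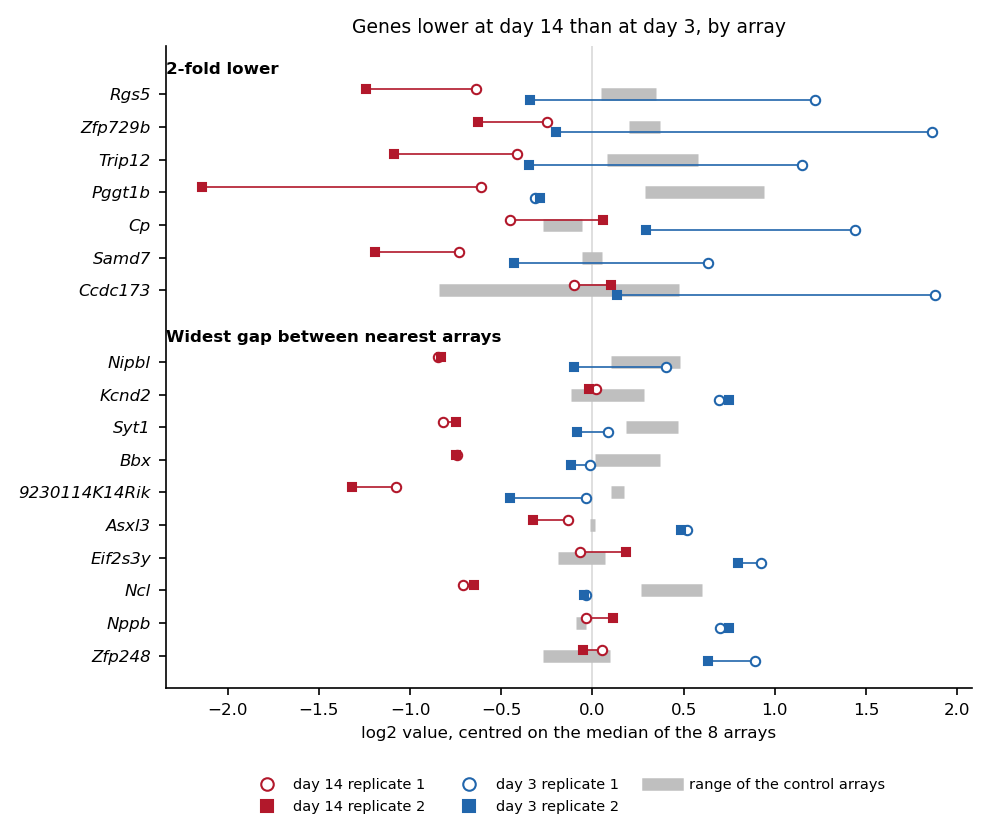
Centred log2 values (horizontal axis) of the 7 genes 2-fold lower at day 14 without overlap and of the 10 named genes with the widest gap downwards, day 14 in red above day 3 in blue (open circles, replicate 1; filled squares, replicate 2). Grey bars span the control arrays. The 2-fold lower genes have 1 array far from the rest, while the arrays of a time lie closer together in most of the others.

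Sex chromosome genes did not move as 1 group. *Eif2s3y*, a translation factor gene on the Y chromosome, had -0.07 and 0.18 at day 14 and 0.92 and 0.80 at day 3 (-0.80 ± 0.16), and both its probe sets were lower without overlap. *Uty*, also Y-linked, had 0.06 and -0.46 at day 14 and 0.99 and 0.14 at day 3 as the mean of its probe sets (-0.76 ± 0.36). *Kdm5d*, a further Y-linked gene, had -0.02 and 0.02 at day 14 and -0.15 and 0.11 at day 3 (0.02 ± 0.14). *Xist*, expressed from the inactive X chromosome of females, had -0.42 and -0.25 at day 14 and -0.04 and -0.18 at day 3 (-0.22 ± 0.18). *Xist*, *Eif2s3y* and *Uty* were thus all lower at day 14 without overlap, and whether the mix of sexes in a pool took part in this was not tested.

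Genes of inner retinal neurons were mostly lower at day 14. Of 29 genes of amacrine, horizontal and ganglion cells, 22 were lower and 7 higher at day 14, and 9 were lower without overlap (31.0%, against 11.7% of all genes) with 1 higher (3.45%). The median difference was -0.23, with -0.22 within the arrays numbered 1 and -0.21 within those numbered 2. *Gap43*, a protein of growing axons, had 0.02 and 0.27 at day 14 and 0.72 and 0.47 at day 3 (-0.45 ± 0.16). *Sncg*, a synuclein of ganglion cells, had 0.09 and 0.04 at day 14 and 0.79 and 0.26 at day 3 (-0.46 ± 0.20). *Stmn2*, which regulates microtubules of neurons, had -0.11 and -0.18 at day 14 and 0.60 and 0.12 at day 3 (-0.51 ± 0.30). The neurofilament genes *Nefm* (-0.43 ± 0.26) and *Nefh* (-0.28 ± 0.13) had no overlap, while the arrays of *Nefl* overlapped (-0.26 ± 0.19). *Thy1* (0.02 ± 0.24) and *Calb2* (-0.04 ± 0.36), of ganglion and amacrine cells, had overlapping arrays and differences near 0.

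For rods, 18 of 27 genes were higher and 9 lower, with a median of 0.16 that joins 0.36 within the arrays numbered 1 and -0.06 within those numbered 2. Only *Samd7*, which was lower, had no overlap (3.70%, against 11.7% of all genes), and no rod gene was higher without overlap (0.00%, against 14.4%). Of 15 cone genes 6 were higher and 9 lower. None lay apart between the times (0.00% in each direction, against 14.4% of all genes higher and 11.7% lower). *Opn1sw*, the blue cone opsin, differed by 0.16 ± 0.37 and *Opn1mw*, the green one, by 0.25 ± 0.34. Of 21 bipolar genes 6 were higher and 15 lower, with 3 each way without overlap (14.3%, against 14.4% of all genes higher and 11.7% lower). Müller cell genes had 19 of 27 higher, 6 without overlap (22.2%, against 14.4% of all genes), with *Hes1*, a Notch target, at 0.51 ± 0.16 and *Sox9*, a transcription factor of these glia, at 0.35 ± 0.21. The median of this list was 0.17 and joins 0.37 within the arrays numbered 1 and -0.06 within those numbered 2.

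Genes of microglia, gliosis and complement, taken as lists, differed more between the arrays of a time than between the times. Over 33 genes of microglia and macrophages the median was 0.03 and 0.65 on the day 14 arrays and 0.01 and 0.43 on the day 3 arrays, and 16 genes were higher and 17 lower. Only *Lyz2*, a lysozyme of macrophages (0.97 ± 0.35), and *Itgam*, an integrin of the same cells (0.16 ± 0.14), had no overlap. Both were higher (6.06%, against 14.4% of all genes), and none was lower (0.00%, against 11.7%). The median of the 37 gliosis genes was 0.12 and 0.80 on the day 14 arrays and -0.04 and 0.60 on the day 3 arrays. Here 29 genes were higher, 2 without overlap in each direction (5.41%, against 14.4% of all genes higher and 11.7% lower). *Tgm1*, a transglutaminase, had 0.60 and 0.80 at day 14 and -0.16 and -0.24 at day 3 (0.90 ± 0.28) and was the widest apart. Of 27 complement genes 15 were higher and 12 lower, 5 (18.5%) and 3 (11.1%) of them without overlap, near the shares of all genes (14.4% and 11.7%). *C2*, a protease of the classical pathway, had 0.72 and 1.60 at day 14 and -0.40 and -0.52 at day 3 (1.62 ± 0.50), and its 3 probe sets were all higher. The spread over arrays is shown in the plot of list medians.

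**Figure D3:**
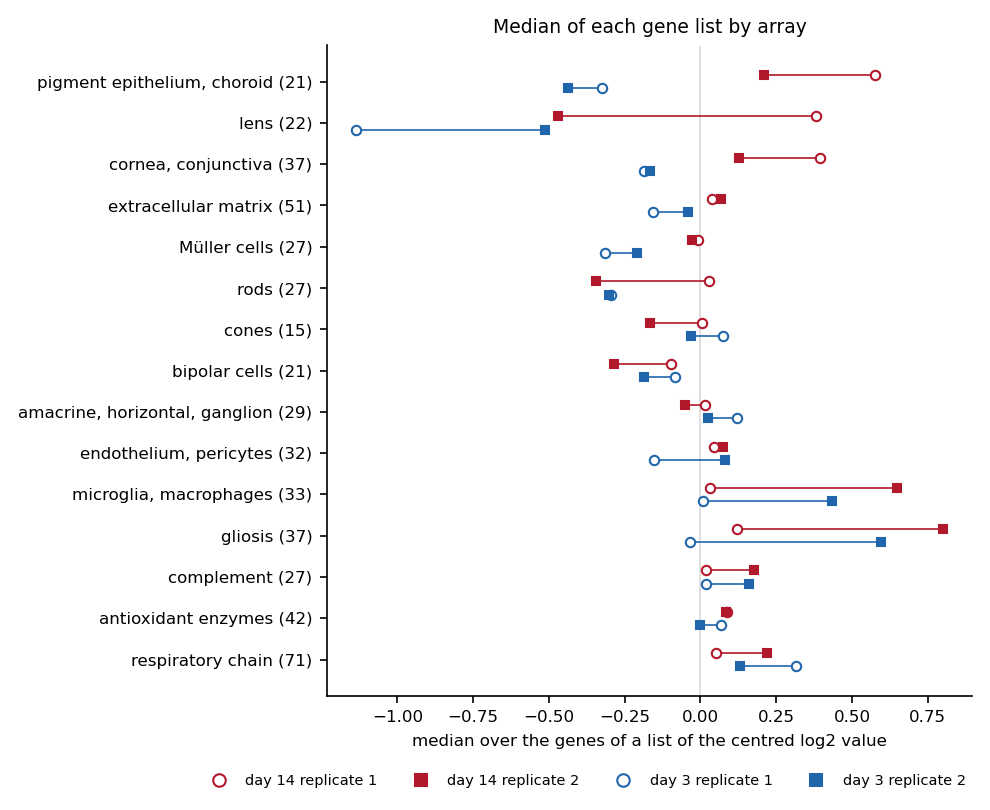
Median over the genes of a list of the centred log2 value (horizontal axis) on each of the 4 arrays, with the number of genes measured, day 14 in red above day 3 in blue (open circles, replicate 1; filled squares, replicate 2). Day 14 lies right of day 3 in the pigment, corneal, matrix and Müller cell lists, and narrowly in the lens and antioxidant lists. In the amacrine, horizontal and ganglion list it lies narrowly left. In the microglia and gliosis lists the arrays numbered 2 (0.43 to 0.80) lie right of those numbered 1 (-0.04 to 0.12) at both times.

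The genes that the study names as early, late or lower late were chosen on these arrays, so their direction is no independent evidence. For each, the probe set that varied most over all arrays (by SD) is given. *Hif1a*, a transcription factor stabilised by low oxygen, had 0.19 and -2.68 at day 14 and 1.11 and -1.65 at day 3 (-0.97 ± 1.36), and 2 of its 4 probe sets were lower. *Oxr1*, an oxidation resistance gene, had 0.25 and -1.89 at day 14 and 1.30 and -1.28 at day 3 (-0.83 ± 0.998). *Akt1*, a survival kinase, had 0.06 and -2.06 at day 14 and 0.77 and -2.22 at day 3 (-0.28 ± 1.11). In these genes the arrays numbered 2 lay far below those numbered 1 at both times, and the times overlapped. *Thbs1* (-0.10 ± 0.71), a matrix protein that restrains vessel growth, and *Tollip* (0.24 ± 0.95), an inhibitor of Toll-like receptor signalling, also overlapped.

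Of the 14 genes named as late, 9 were higher and 5 lower as gene means, with a median of 0.03, and none was without overlap. *Gfap*, the intermediate filament of reactive glia, had 0.66 and 3.08 at day 14 and 0.16 and 3.26 at day 3 (0.15 ± 1.09). *Edn2*, an endothelin, had 0.01 and 3.12 at day 14 and -0.34 and 3.51 at day 3 (-0.02 ± 1.48). *Bcl3*, a partner of NF-kappa-B, had 0.40 and 2.41 at day 14 and 0.09 and 2.65 at day 3 (0.03 ± 0.90). In these 3 genes the array numbered 2 was thus at least 2 above that numbered 1 at either time, and the differences between the times were far within the SE. The study's quantitative PCR, on separately pooled retinas, reported *Gfap*, *Edn2* and *Bcl3* higher in the late phase than in the early one. The array values given here do not show that these genes stayed level between the times. They rest on the labels of the arrays, which these data do not settle. *Lin7b* (-0.05 ± 1.03), a scaffold protein of synapses, *Gadd45b* (0.27 ± 0.77), a stress response gene, and *Serping1* (0.37 ± 0.73), the C1 inhibitor, also had differences smaller than the SE. The subunits of C1q, which starts the classical complement pathway, differed by -0.24 ± 0.37 for *C1qa*, 0.06 ± 0.80 for *C1qb* and 0.10 ± 0.71 for *C1qc*. *Siva1* (-0.26 ± 0.40) and *Bik* (0.20 ± 0.19), both promoters of apoptosis, *Htra1*, a secreted protease (0.51 ± 0.45), *Serpinc1*, the inhibitor antithrombin (0.06 ± 0.19), and *Wfs1*, a protein of the endoplasmic reticulum (0.17 ± 0.36), had overlapping arrays.

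Of the 19 genes named as lower in the late phase, 14 were lower and 5 higher at day 14 than at day 3 as gene means, with a median of -0.11. *Rpgr*, a protein of the photoreceptor cilium, had -0.68 and -0.82 at day 14 and 0.20 and -0.55 at day 3 (-0.58 ± 0.28). *Pcdh15*, a protocadherin linked to Usher syndrome, had -0.65 and -0.57 at day 14 and -0.06 and -0.19 at day 3 (-0.48 ± 0.28). *Chm*, a Rab escort protein linked to choroideremia, had 0.01 and -0.01 at day 14 and 0.80 and 0.23 at day 3 (-0.52 ± 0.28). These 3 had no overlap, as had *Pex5l* (-0.32 ± 0.16), related to a peroxisomal receptor, whose mean over 4 probe sets was 0.11 in the other direction, and in the other direction *Col11a1*, a fibril collagen (0.30 ± 0.19). *Dmd*, which encodes dystrophin, had -0.65 and -2.57 at day 14 and 0.25 and -2.30 at day 3 (-0.58 ± 0.92), and its 4 probe sets were lower. *Rpgrip1*, which anchors Rpgr, differed by -0.28 ± 0.52 at its most variable probe set, with 4 of 4 lower and 3 without overlap. *Crb1* (-0.69 ± 0.82), *Api5* (-0.48 ± 1.27), *Apc* (-0.32 ± 0.70), *Pex2* (-0.31 ± 0.31), *Ahi1* (-0.27 ± 0.94), *Gsk3b* (-0.15 ± 0.33), *Prpf3* (-0.14 ± 0.28), *Ly96* (-0.11 ± 0.20), *Adgrv1* (-0.04 ± 0.23), *Rgs9* (-0.01 ± 0.34), *Igf1r* (0.27 ± 0.29) and *Col9a1* (0.48 ± 0.50) had overlapping arrays. Of the remaining genes the study names, *Hspa1b*, an inducible heat shock protein, had 0.55 and 0.11 at day 14 and -0.94 and -0.10 at day 3 (0.85 ± 0.39), and its 3 probe sets were higher without overlap. *Vwf*, the clotting factor of endothelium, overlapped (0.69 ± 0.71).

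**Figure D4:**
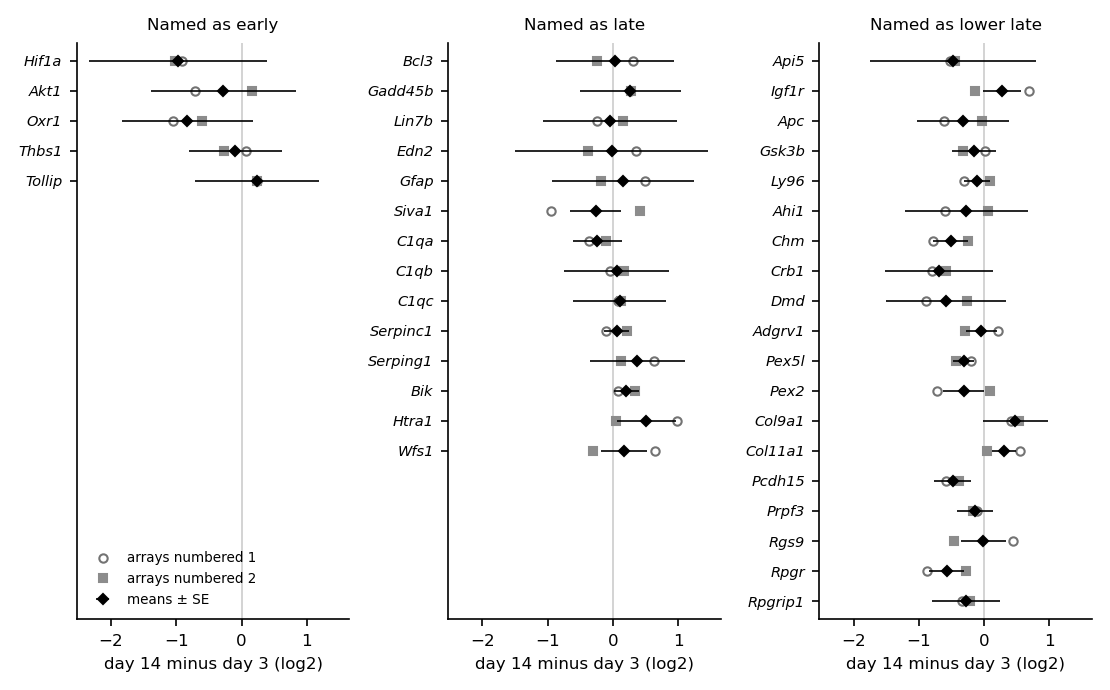
Difference of day 14 minus day 3 (log2, horizontal axis) of the genes named as early (5), late (14) and lower late (19), with the difference of means ± SE from limma (diamonds, n = 2 arrays a time) and the difference within the arrays numbered 1 (circles) and numbered 2 (squares). Most late genes lie within 0.5 of 0, and the error bars of all late genes but *Bik* and *Htra1* cross it.

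Gene families of metabolism and stress had medians within 0.15 of 0. Of 42 antioxidant genes 27 were higher and 15 lower, and 11 were higher without overlap (26.2%, against 14.4% of all genes), with a median of 0.05. Apart from *Gpx3*, the differences lay between -0.48 (*Gpx8*, a peroxidase of the endoplasmic reticulum) and 0.41 (*Sod3*, the extracellular superoxide dismutase). *Sod1* (-0.06 ± 0.17), *Sod2* (0.06 ± 0.21) and *Cat* (0.12 ± 0.21), which remove superoxide and hydrogen peroxide inside the cell, had overlapping arrays. Genes of AKT, GSK3 and beta-catenin signalling were mostly higher (35 of 45, 13 without overlap, 28.9% against 14.4%), with a median of 0.14 and with *Foxo1*, a transcription factor under AKT (0.43 ± 0.24), and *Axin2*, a Wnt target (0.36 ± 0.18), among them. Of 40 immediate early genes 31 were higher, 5 without overlap (12.5%, against 14.4%), with a median of 0.36 within the arrays numbered 1 and 0.02 within those numbered 2. *Klf4*, a transcription factor of epithelia, had the largest difference without overlap (0.76 ± 0.32), and *Myc* was lower without overlap (-0.44 ± 0.17). Of 71 genes of the respiratory chain 47 were lower, but their median was -0.29 within the arrays numbered 1 and 0.11 within those numbered 2. Cytosolic ribosomal protein genes (31 of 43 lower) and proteasome genes (21 of 31 lower) turned in the same way, with medians of -0.16 and -0.22 within the arrays numbered 1 and 0.05 and 0.02 within those numbered 2. Genes that promote apoptosis (median 0.04), those that inhibit it (0.01) and those of DNA repair (0.00) had medians near that of all genes.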

How the data were processed

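RNA of adult mouse retina was hybridised to 8 one-colour arrays of a mouse whole-genome type, 2 for each of 4 times, and the label of an array gave its time. The authors deposited log2 values from RMA, which corrects background, normalizes by quantiles and summarises probes (its version is not given in the sources used here). In the files each probe set had a median of 0 over the arrays. With no level in the values, no filter on low signal was applied, and the number of arrays limits the precision.

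Of 45101 probe sets, 64 controls were set aside. Of the 45037 tested, 34945 name 1 gene, 932 several and 9160 none in GEO's platform annotation, which gave 18194 genes. A model of 4 group means was fitted to all arrays by lmFit and eBayes of limma 3.58.1 (R 4.3.3; 4 residual and 2.71 prior degrees of freedom) and adjusted by Benjamini-Hochberg, on probe sets and again on gene means. Overlaps, lists and motifs were counted in Python 3.11.15 (numpy 2.4.6, pandas 2.3.3, scipy 1.17.1; figures, matplotlib 3.10.9). The fit was tested on simulated data.

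The comparison, the 40 gene lists and the named genes were chosen with earlier results of these data known, and the lists were given no test. The rule for named genes took those of the study's lists by the most variable probe set, the 15 largest 2-fold differences without overlap in each direction, the 10 widest gaps in each direction, and for each list up to 4 members with the smallest p. Other genes in the text, such as *Tyr*, *Slc26a4*, *Krt5*, *Asprv1*, *Dcn*, *Sdc1*, *Bmp7*, *Abcc4*, *Best2* and many list members given as gene means, were picked after their values were seen. A list gene is the mean of its probe sets, and 142 of 1505 list entries matched no probe set that names 1 gene. The alternatives tried were quantile normalization once more, array medians subtracted, other fits, genes in place of probe sets, other thresholds and arrays left out. The study's quantitative PCR and tissue sections, and some genes it names, were not analysed here.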

Additional observations from a re-analysis of the deposited data

How the results depend on the processing

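The count of probe sets past adjusted p was 0 under every alternative that refitted the model, with the lowest adjusted p (0.158) after the array labelled day 3 replicate 2 was left out, where 6553 probe sets had an unadjusted p under 0.05. Leaving out 1 array at a time gave 133 to 887 probe sets 2-fold higher and 9 to 1360 lower without overlap, a share lower of 6.34% to 72.5%, 187 to 2260 past 2-fold by their means and 11737 to 33331 without overlap. Leaving out the array labelled day 3 replicate 2 gave 887 higher against 1360 lower. Day 14 replicate 1 left out gave 221 against 583, day 3 replicate 1 left out 225 against 31, and day 14 replicate 2 left out 234 against 40. With both arrays numbered 2 left out there were 692 higher and 796 lower (1488 in all, 53.5% lower), and with both numbered 1 left out 143 and 51 (26.3% lower).

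With a further quantile normalization 17 were lower. Folds from linear means gave 334 past 2-fold and 27 lower without overlap (17.8%). Genes in place of probe sets, with fewer features tested, gave 4752 without overlap, 69 past 2-fold, 67 higher and 0 lower. At 1.5-fold there were 1510 in all, 495 higher and 287 lower (36.7% lower), and a gap of 1 or more left 36, with 36 higher and 0 lower. The cause of these shifts was not tested beyond what each setting changes by its construction.

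The deviations of same-numbered arrays correlated at 0.55 for day 3 with day 14, the highest of the 6 pairs of times, and at -0.40 to 0.44 for the other 5. The numbers were not taken to pair the samples, since 4 of the 6 correlations were negative. The fit with the replicate number as a block gave 0 probe sets past adjusted p and 1186 with an unadjusted p under 0.05.

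*Pex5l* turned to 0.11 as the mean of its probe sets. The other 59 named genes without overlap kept their direction, which the absence of overlap fixes for arrays left out. All 36 named genes with overlap changed sign under at least 1 alternative, 20 of them without day 3 replicate 1. Of 40 list medians, 31 changed sign under at least 1, 21 of them without that array.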

Other observations

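Genes lower at day 14 by 1.5-fold without overlap had long loci and often names of zinc finger genes, both noticed after the values were seen and given as counts. Their median span in RefSeq (GRCm38.p6) was 49.1 kb over 204 of 205 genes, against 16.2 kb over the 104 genes 2-fold higher without overlap and 20.3 kb over 18029 of 18194 genes measured. Symbols starting with Zfp, Zbtb, Zscan or Zkscan, names of zinc finger proteins that mostly bind DNA, made up 25 of the 205 lower genes (12.2%), 0 of the 104 higher ones (0.00%) and 399 of all measured (2.19%). On 208 of the 287 lower probe sets (72.5%) the difference was larger within the arrays numbered 1 than within those numbered 2, against 60.3% of all probe sets.

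Of the 104 genes 2-fold higher at day 14 without overlap, 38 were members of the pigment, lens, corneal, matrix or vessel lists. These lists together hold 163 of the 18194 genes measured. The corneal list held 15 of them among 37 measured genes, the pigment list 10 among 21 and the lens list 7 among 22. The lists of rods (27 genes), cones (15), microglia (33) and of amacrine, horizontal and ganglion cells (29) held 0 of the 104. The bipolar list (21) held 1, *Trpm1*, and the Müller cell list (27) held 1, *Rgr*. At the share of all genes, 104 of 18194, a list of such a size would mostly hold 0, so these low counts tell nothing of those cells.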
